A study of Homo sapiens with 9 samples.

Results

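Keratin genes encode the epithelial intermediate filament proteins, and their transcripts were examined here in blood-forming cells derived from human embryonic stem cells. Members were taken by symbol, as every row of the count table named KRT with a number and at most a letter A, B or C, which left out keratin-associated proteins and pseudogenes. This gave 34 of the 21229 genes, 13 of type I and 21 of type II. GENCODE release 29 holds 55 protein-coding symbols of this form, and the other 21 (KRT9, KRT25 to KRT28, KRT31 to KRT40, KRT75, KRT76, KRT82, KRT84 and KRT85) were not analysed here.

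The study overexpressed GATA2, a zinc finger transcription factor of blood stem and progenitor cells, in cells differentiated from H1, an established human embryonic stem cell line. Bulk RNA was sequenced from 3 groups of 3 libraries. They were cells with the genotype GATA2 overexpression that were positive for the surface antigen CD90, control cells positive for CD90, and control cells positive for CD38. The labels give neither the vector nor the day of differentiation, and they do not say whether replicate libraries were made from separate cultures, so p-values measure only the spread between these libraries, which may be technical. The groups are called overexpression CD90+, control CD90+ and control CD38+ below.

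Keratin filaments are built from obligate heterodimers of a type I (acidic) and a type II (basic) chain, and an unpaired chain is usually degraded. KRT8 and KRT18 are the pair of simple epithelia and of the earliest embryonic epithelia, with KRT7 and KRT19 as further simple epithelial chains. Other pairs mark stratified layers, such as KRT14 with KRT5 in basal cells and KRT10 with KRT1 above them, and KRT81 and KRT86 are hair shaft chains. Desmosomes anchor the filaments at cell contacts. Blood cells are generally poor in keratin, and their main cytoplasmic intermediate filament protein is vimentin.

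Assigned reads totalled 37500192 to 39582736 per library in overexpression CD90+ cells, 42577569 to 47261093 in control CD90+ cells and 42695005 to 45561088 in control CD38+ cells. Levels are CPM, reads per unit of sequencing depth after scaling with TMM factors, and a gene was called by edgeR (quasi-likelihood, 16232 genes tested) at a Benjamini-Hochberg adjusted p under 0.05. GATA2 was at 363, 388 and 377 CPM in overexpression CD90+ libraries, 86.5, 89.5 and 85.9 CPM in control CD90+ libraries and 551, 576 and 581 CPM in control CD38+ libraries. Transgene and endogenous GATA2 reads cannot be told apart in these counts. THY1, which encodes CD90, was at 2.80 to 3.56 CPM in overexpression CD90+ and 3.83 to 5.09 CPM in control CD90+ libraries, and had 0 counts in control CD38+ libraries. CD38 was at 1.74 to 2.76 CPM in overexpression CD90+, 4.09 to 4.81 CPM in control CD90+ and 119 to 124 CPM in control CD38+ libraries.

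Control CD90+ cells held the most keratin reads and the most keratin genes. Keratins took 0.0684 ± 0.00061% of all reads in overexpression CD90+, 0.105 ± 0.00004% in control CD90+ and 0.0569 ± 0.00037% in control CD38+ libraries (SD, n = 3 each). With TMM scaling the gaps were smaller, at mean sums of 697, 900 and 650 CPM in the same order of groups. Members with at least 1 read numbered 16 to 19 per overexpression CD90+ library, 26 to 27 per control CD90+ library and 18 to 21 per control CD38+ library. In all 3 libraries of a group, 13 members had reads in overexpression CD90+, 24 in control CD90+ and 18 in control CD38+ cells. At 0 counts throughout a group were 11 members in overexpression CD90+, 5 in control CD90+ and 13 in control CD38+ cells. The share of all genes with reads was not computed, so these numbers of members are a description. The highest group mean fell in control CD90+ cells for 8 of 13 type I rows, and in control CD38+ cells for 12 of 21 type II rows.

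Few members carried these totals. Only 11 members reached a mean of 1 CPM in any group (KRT3, KRT4, KRT7, KRT8, KRT10, KRT18, KRT19, KRT78, KRT79, KRT81 and KRT86). The filter on low counts passed 20 members, 7 of type I and 13 of type II. It used all 9 libraries together, so a member could pass through 1 group alone. The 14 that it left out (KRT5, KRT6A, KRT6B, KRT6C, KRT12, KRT13, KRT15, KRT17, KRT20, KRT23, KRT71, KRT73, KRT74 and KRT83) had 2 to 63 counts over all 9 libraries.

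**Figure D1:**
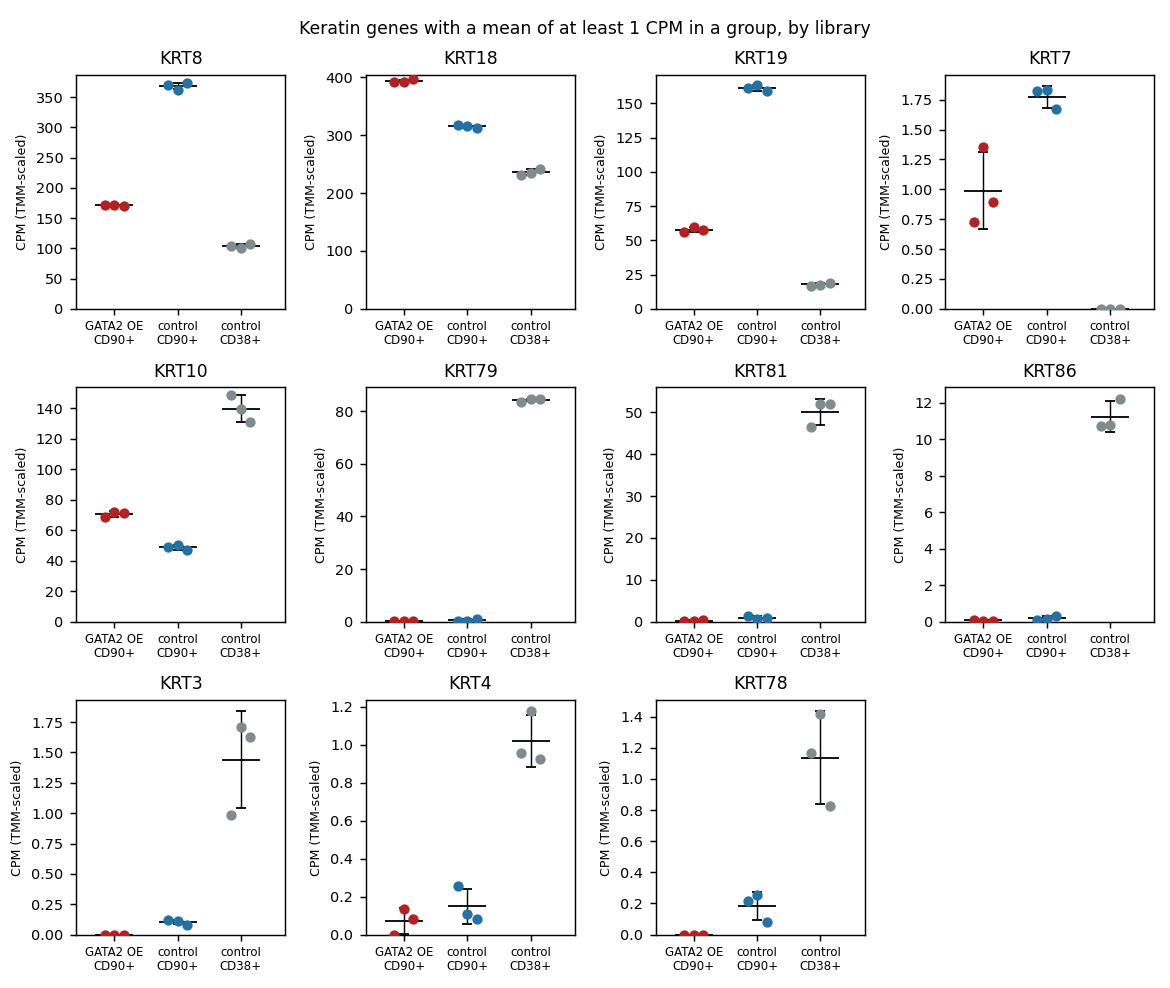
CPM (TMM-scaled, linear axes from 0) of the 11 keratin genes with a mean of at least 1 CPM in a group; points are libraries, horizontal lines means and bars SD (n = 3). KRT8, KRT19 and KRT7 peak in control CD90+ cells, KRT18 in overexpression CD90+ cells, and the other 7 in control CD38+ cells.

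KRT8, the type II chain of simple epithelia (ENSG00000170421.12, chromosome 12, 52897187 to 52949954, minus strand, GRCh38), was highest in control CD90+ cells. It was at 171, 172 and 171 CPM in overexpression CD90+ libraries, 370, 362 and 373 CPM in control CD90+ libraries and 104, 101 and 107 CPM in control CD38+ libraries. No library of any group overlapped another group. KRT8 was 2.15-fold lower in overexpression than in control CD90+ cells (log2 fold change -1.10 ± 0.03 SE, edgeR adjusted p = 4.05e-16). It was 3.55-fold higher in control CD90+ than in control CD38+ cells (log2 fold change 1.83 ± 0.03, edgeR adjusted p = 5.53e-19).

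KRT18, the type I partner of KRT8, lies beside it on the plus strand (ENSG00000111057.10, chromosome 12, 52948871 to 52952901). Its levels were 392, 393 and 397 CPM in overexpression CD90+, 317, 316 and 313 CPM in control CD90+ and 232, 236 and 241 CPM in control CD38+ libraries. The groups did not overlap, and their order differed from that of KRT8. KRT18 was 1.25-fold higher in overexpression than in control CD90+ cells (log2 fold change 0.32 ± 0.02, edgeR adjusted p = 8.66e-10). With library size alone in place of TMM the log2 difference was 0.07, against a shift in the median of all genes from -0.04 to -0.29. It was 1.33-fold higher in control CD90+ than in control CD38+ cells (log2 fold change 0.42 ± 0.02, edgeR adjusted p = 2.64e-11), and 0.83 on the log2 scale with library size alone, where the median of all genes moved from 0.03 to 0.44.

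The ratio of KRT8 to KRT18 reads does not depend on library scaling. It was 0.435 ± 0.0043 in overexpression CD90+, 1.17 ± 0.023 in control CD90+ and 0.439 ± 0.011 in control CD38+ libraries (SD, n = 3 each). Overexpression CD90+ and control CD38+ libraries overlapped in this ratio, at 0.430 to 0.439 and 0.427 to 0.447. Control CD90+ libraries stood apart at 1.15 to 1.19. These are read ratios and not ratios of molecules, since the genes differ in length. The exons of KRT8 and KRT18 overlap by 525 bases on opposite strands, and of their 50-base stretches 10.1% and 14.4% also occur in other annotated genes, pseudogenes among them. Whether strand was used in counting is not given in the sources used here, so reads from those bases cannot be assigned with certainty.

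KRT19 is a type I chain of simple epithelia that can stand in for KRT18 (ENSG00000171345.13, chromosome 17, 41523617 to 41528308, minus strand). It was at 55.7, 59.6 and 57.8 CPM in overexpression CD90+, 161, 164 and 159 CPM in control CD90+ and 16.7, 17.6 and 19.0 CPM in control CD38+ libraries. Its groups were ordered like those of KRT8, without overlap and with wider gaps. KRT19 was 2.79-fold lower in overexpression than in control CD90+ cells (log2 fold change -1.48 ± 0.04, edgeR adjusted p = 1.75e-15). It was 9.06-fold higher in control CD90+ than in control CD38+ cells (log2 fold change 3.18 ± 0.04, edgeR adjusted p = 2.56e-19).

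KRT7, the type II chain found in ducts and in trophoblast (ENSG00000135480.15, chromosome 12, 52232520 to 52252186, plus strand), was rare. It was at 0.723, 1.35 and 0.897 CPM in overexpression CD90+ and 1.83, 1.83 and 1.67 CPM in control CD90+ libraries, and it had 0 counts in control CD38+ libraries. It was 1.79-fold lower in overexpression than in control CD90+ cells (log2 fold change -0.84 ± 0.27, edgeR adjusted p = 0.0115), and the call was lost without overexpression replicate 1 (adjusted p = 0.0522). With 3 counts over the control CD38+ group as the floor, KRT7 was at least 68.2-fold higher in control CD90+ and at least 37.9-fold higher in overexpression CD90+ than in control CD38+ cells. Floors and intervals cover counting error only.

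KRT10, a type I chain of suprabasal epidermis (ENSG00000186395.7, chromosome 17, 40818117 to 40822595, minus strand), was, unlike KRT18 and KRT19, highest in control CD38+ cells. Its levels were 68.7, 72.1 and 71.5 CPM in overexpression CD90+, 49.2, 50.3 and 46.8 CPM in control CD90+ and 149, 139 and 131 CPM in control CD38+ libraries. Control CD38+ libraries were the highest and control CD90+ libraries the lowest, with no overlap. KRT10 was 1.45-fold higher in overexpression than in control CD90+ cells (log2 fold change 0.54 ± 0.05, edgeR adjusted p = 8.76e-09; 0.29 with library size alone). It was 2.86-fold lower in control CD90+ than in control CD38+ cells (log2 fold change -1.52 ± 0.04, edgeR adjusted p = 3.96e-15; -1.11 with library size alone). Its usual type II partner KRT1 was far scarcer, with 0 counts in overexpression CD90+, 1, 4 and 1 counts in control CD90+ and 21, 21 and 12 counts in control CD38+ libraries.

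A second set of type II genes was almost confined to control CD38+ cells among the 3 groups. KRT79, a type II chain described in mouse hair follicle canals and sebaceous ducts (ENSG00000185640.5, chromosome 12, 52821410 to 52834295, minus strand), was at 0.129, 0.238 and 0.299 CPM in overexpression CD90+ and 0.334, 0.272 and 0.886 CPM in control CD90+ libraries. In control CD38+ libraries it was at 83.6, 84.5 and 84.6 CPM. KRT79 was 171-fold lower in control CD90+ than in control CD38+ cells (log2 fold change -7.42 ± 0.16, edgeR adjusted p = 9.59e-17), and 276-fold lower without control CD90+ replicate 3. Only 0.236% of its 50-base stretches occur in other annotated genes.

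The difference in KRT79 between the CD90+ groups rested on single libraries. It was 2.20-fold lower in overexpression than in control CD90+ cells (log2 fold change -1.14 ± 0.43, edgeR adjusted p = 0.0238), but the libraries of these groups overlapped. Without control CD90+ replicate 3 the log2 fold change was -0.44 (adjusted p = 0.281), and without overexpression replicate 1 the adjusted p was 0.104. It was 0.0992 with limma voom and 0.0709 in a fit of these groups alone.

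KRT81, a hair shaft chain (ENSG00000205426.10, chromosome 12, 52285913 to 52291534, minus strand), was at 0.155, 0.0530 and 0.380 CPM in overexpression CD90+ and 1.39, 0.671 and 0.825 CPM in control CD90+ libraries. It was at 46.5, 52.0 and 51.9 CPM in control CD38+ libraries. The groups did not overlap. KRT81 was 4.87-fold lower in overexpression than in control CD90+ cells (log2 fold change -2.29 ± 0.40, edgeR adjusted p = 5.70e-05; 8.97-fold without overexpression replicate 3) and 52.2-fold lower in control CD90+ than in control CD38+ cells (log2 fold change -5.71 ± 0.19, edgeR adjusted p = 1.75e-14).

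KRT86, another hair shaft chain, spans KRT81 on the plus strand (ENSG00000170442.11, chromosome 12, 52249300 to 52309163). It was at 0.103, 0.0530 and 0.0543 CPM in overexpression CD90+, 0.0785, 0.145 and 0.322 CPM in control CD90+ and 10.7, 10.8 and 12.2 CPM in control CD38+ libraries. It was 61.5-fold lower in control CD90+ than in control CD38+ cells (log2 fold change -5.94 ± 0.27, edgeR adjusted p = 2.13e-12), and 96.9-fold lower without control CD90+ replicate 3. The CD90+ groups overlapped, and the lower value with overexpression (log2 fold change -1.32 ± 0.54, edgeR adjusted p = 0.0355) was not called without control CD90+ replicate 3 (0.341) or overexpression replicates 2 (0.104) or 3 (0.0962), nor with voom (0.176). KRT81 and KRT86 share sequence: 37.6% of the 50-base stretches of KRT81 occur in KRT86, so how reads were split between them is uncertain.

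KRT3, KRT4 and KRT78, type II chains of stratified epithelia (KRT3 of the cornea, KRT4 of mucosa such as the oesophagus), were lower-level companions with the same order of groups. KRT3 (ENSG00000186442.7) had 0 counts in overexpression CD90+ libraries, 0.118, 0.109 and 0.0805 CPM in control CD90+ and 0.984, 1.71 and 1.63 CPM in control CD38+ libraries. KRT78 (ENSG00000170423.12) had 0 counts in overexpression CD90+ libraries, 0.216, 0.254 and 0.0805 CPM in control CD90+ and 1.17, 1.42 and 0.826 CPM in control CD38+ libraries. KRT4 (ENSG00000170477.12) was at 0, 0.132 and 0.0815 CPM in overexpression CD90+, 0.255, 0.109 and 0.0805 CPM in control CD90+ and 0.957, 1.18 and 0.926 CPM in control CD38+ libraries. Each was highest in control CD38+ cells with no overlap, and only KRT4 overlapped between the CD90+ groups. In control CD90+ against control CD38+ cells KRT3 was 13.7-fold lower (log2 fold change -3.77 ± 0.44, edgeR adjusted p = 1.42e-06), KRT4 6.78-fold lower (-2.76 ± 0.51, 1.11e-04; 10.4-fold without control CD90+ replicate 1) and KRT78 6.05-fold lower (-2.60 ± 0.46, 9.87e-05). In overexpression against control CD90+ cells KRT3 was at least 3.88-fold lower (adjusted p = 0.00230) and KRT78 at least 7.03-fold lower (adjusted p = 6.77e-04), while KRT4 was not called (log2 fold change -1.03 ± 0.75, adjusted p = 0.220).

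These genes stand close together on chromosome 12. In the order KRT72, KRT73, KRT2, KRT1, KRT77, KRT3, KRT4, KRT79 and KRT78, 8 of the 9 rows had their highest mean in control CD38+ cells. In control CD90+ against control CD38+ cells 7 were lower and 1, KRT2, was higher, and KRT73 did not pass the filter on low counts. KRT8 and KRT18, which follow directly in that order, were both higher. The stretch was picked after its values were seen, so its counts are a description.

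**Figure D2:**
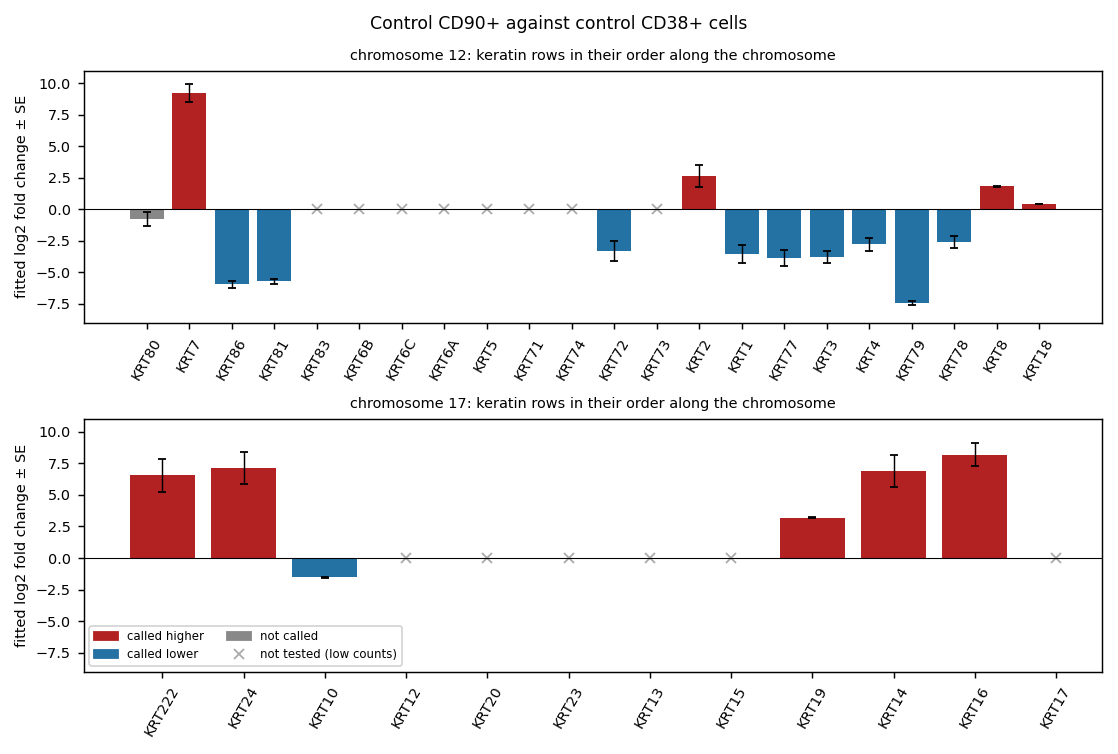
Fitted log2 fold change ± SE in control CD90+ against control CD38+ cells for the keratin rows in their order along chromosomes 12 and 17 (spacing not to scale); crosses are the 14 members not tested. Chromosome 12 holds 4 higher and 9 lower members and chromosome 17 holds 5 higher and 1 lower. KRT7, KRT14, KRT16, KRT24 and KRT222 had 0 counts in control CD38+ cells, so the height of their bars depends on the prior count.

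The sequences upstream of 3 neighbouring genes of that stretch are shown because these genes were highest in the group with the highest GATA2 level. They are the 250 bases before the transcription start from RefSeq (GRCh38.p14, minus strand, 5′ to 3′), at chr12:52834312-52834561 for KRT79, chr12:52796118-52796367 for KRT3 and chr12:52814117-52814366 for KRT4. Capitals mark the hexamers AGATAA or AGATAG or TGATAA or TGATAG, forms of the core letters that GATA factors bind, searched on both strands with no overlapping matches.
KRT79: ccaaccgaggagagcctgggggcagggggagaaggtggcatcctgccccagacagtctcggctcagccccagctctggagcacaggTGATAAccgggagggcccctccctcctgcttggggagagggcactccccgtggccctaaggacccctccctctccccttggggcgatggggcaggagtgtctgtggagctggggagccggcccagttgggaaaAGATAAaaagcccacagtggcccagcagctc
KRT3: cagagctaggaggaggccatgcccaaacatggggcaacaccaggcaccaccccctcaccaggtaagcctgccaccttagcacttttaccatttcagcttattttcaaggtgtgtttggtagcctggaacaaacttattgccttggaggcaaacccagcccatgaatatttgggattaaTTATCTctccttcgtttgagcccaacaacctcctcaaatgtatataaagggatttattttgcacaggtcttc
KRT4: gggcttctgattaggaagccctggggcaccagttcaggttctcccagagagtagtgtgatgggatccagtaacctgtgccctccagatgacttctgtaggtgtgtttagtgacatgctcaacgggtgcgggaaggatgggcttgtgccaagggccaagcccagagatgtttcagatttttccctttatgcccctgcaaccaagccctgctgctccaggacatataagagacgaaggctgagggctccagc
KRT79 held TGATAA starting 164 bases before the start and AGATAA at 31 bases. KRT3 held AGATAA on the opposite strand, printed as TTATCT, at 72 bases, and these letters were not in the KRT4 window. Of 35114 promoters of that length 22.3% held at least 1 match and 4.96% at least 2. A promoter entry existed for 13 of the 34 keratin rows, and 8 of them held a match. KRT2, which was highest in overexpression CD90+ cells, held 2, and KRT10 held 1 at 128 bases. KRT74 held the most, 3, and KRT20, KRT71 and KRT73 held 1 each, though these genes had only 2 to 24 counts over all 9 libraries. Between the CD90+ groups GATA2 was higher with overexpression, while the means of KRT79, KRT3 and KRT4 were lower (KRT4 not called). A match is not evidence of binding, and a link to GATA2 was not tested.

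Several rare type I members had reads in the CD90+ groups and none in control CD38+ cells. KRT14, the basal epidermal chain, had 0 counts in overexpression CD90+ libraries and 14, 22 and 19 counts in control CD90+ libraries. KRT16, a chain of stressed or hyperproliferative epidermis, had 23, 20 and 20 counts in overexpression CD90+ and 51, 56 and 28 counts in control CD90+ libraries. KRT24, another type I chain, had 13, 2 and 9 counts in overexpression CD90+ and 24, 24 and 16 counts in control CD90+ libraries. KRT222, a keratin-like type I gene, had 3, 4 and 2 counts in overexpression CD90+ and 20, 13 and 10 counts in control CD90+ libraries. Against the floor in control CD38+ cells, control CD90+ cells were at least 33.2-fold higher for KRT16, 15.8-fold for KRT24, 13.5-fold for KRT14 and 10.6-fold for KRT222.

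KRT14, KRT24 and KRT222 passed the filter on low counts only through control CD90+ cells, where they were highest. Their differences between the CD90+ groups are therefore a description. Among these rare genes KRT14 was at least 13.3-fold lower in overexpression than in control CD90+ cells (edgeR adjusted p = 3.05e-04). KRT222 was 3.39-fold lower (adjusted p = 0.0295), and that call was lost without any of 3 libraries (adjusted p 0.0701 and 0.0861 without overexpression replicates 1 and 3, and 0.122 without control replicate 1). It was also lost with DESeq2 (0.0570) and with no filter on low counts (0.0573). For KRT16 the log2 fold change was -0.63 ± 0.36 (adjusted p = 0.129), and for KRT24 -0.95 ± 0.58 (adjusted p = 0.147), neither called in the main fit. KRT16 was called lower by edgeR with library size alone (adjusted p = 0.0400), and KRT24 with limma voom (0.0472). KRT14 and KRT16 share 16.8% and 16.5% of their 50-base stretches with other annotated genes. KRT222 shares 33.5%, with an overlapping gene model that is not a row of the table.

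KRT2, the type II chain of the upper epidermis, went the other way. It had 42, 22 and 16 counts in overexpression CD90+, 12, 6 and 10 counts in control CD90+ and 2, 0 and 1 counts in control CD38+ libraries. It was 3.84-fold higher in overexpression than in control CD90+ cells (log2 fold change 1.94 ± 0.51, edgeR adjusted p = 0.00261). KRT2 passed the filter on low counts only through overexpression CD90+ cells, where it was highest, so this difference is a description. With 3 counts in all in control CD38+ cells, the ratio of control CD90+ to control CD38+ cells was 6.89, with an exact 95% interval of 2.13 to 35.4.

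Over all tested members, overexpression against control CD90+ cells gave 13 calls of 20, 3 higher (KRT2, KRT10 and KRT18) and 10 lower (KRT3, KRT7, KRT8, KRT14, KRT19, KRT78, KRT79, KRT81, KRT86 and KRT222). In this comparison 77.6% of all tested genes were called, 38.0% higher and 39.6% lower, so the number called is no feature of keratins. Of all calls, 49.0% were higher with TMM scaling and 35.6% with library size alone. The libraries of 13 members did not overlap between these groups, against 80.4% of all tested genes. The median log2 fold change of the 20 was -1.30, or -1.12 with genes at 0 counts set to their bound, and that of all genes -0.04. Differences of at least 2-fold left 1 member higher and 9 lower, against 29.4% of all genes. By type, 2 higher and 3 lower of 7 were type I, and 1 higher and 7 lower of 13 were type II. Some of the 20 passed the filter on low counts only through control CD38+ cells, which are outside this comparison. Among the 10 lower these were KRT3, KRT78 and KRT86. KRT14 and KRT222 passed only through control CD90+ cells and KRT2 only through overexpression CD90+ cells, the groups where they were highest. A fit of the CD90+ groups alone tested 11 members and gave 3 higher and 5 lower, so the counts and the median are a description.

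Control CD90+ against control CD38+ cells gave 19 calls of 20, with 80.4% of all tested genes called (41.1% higher and 39.3% lower). Of all calls, 51.2% were higher with TMM scaling, 71.2% with library size alone and 64.3% with upper-quartile factors. Both comparisons use the same control CD90+ libraries. Type I members were 6 higher and 1 lower (KRT10) of 7. Type II members were 3 higher (KRT2, KRT7 and KRT8) and 9 lower of 13, with KRT80 not called (log2 fold change -0.79 ± 0.56, edgeR adjusted p = 0.204). The median log2 fold change was 3.40 for type I with genes at 0 counts set to their bound (6.58 as fitted) and -3.32 for type II, and that of all genes 0.03. Rare members such as KRT14, KRT24 and KRT222 of type I passed the filter on low counts only through control CD90+ cells. Of type II, KRT1, KRT3, KRT72, KRT77, KRT78 and KRT86 were among those that passed only through control CD38+ cells. KRT2 passed only through overexpression CD90+ cells, which are outside this comparison, and its call was lost in a fit of the control groups alone. The counts and medians by type are shaped by this and are a description. No tested member's libraries overlapped between these groups in TMM-scaled CPM, against 82.8% of all tested genes without overlap. With library size alone those of KRT80 overlapped. At 2-fold or more, 8 members were higher and 10 lower, and 36.2% of all genes were called.

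**Figure D3:**
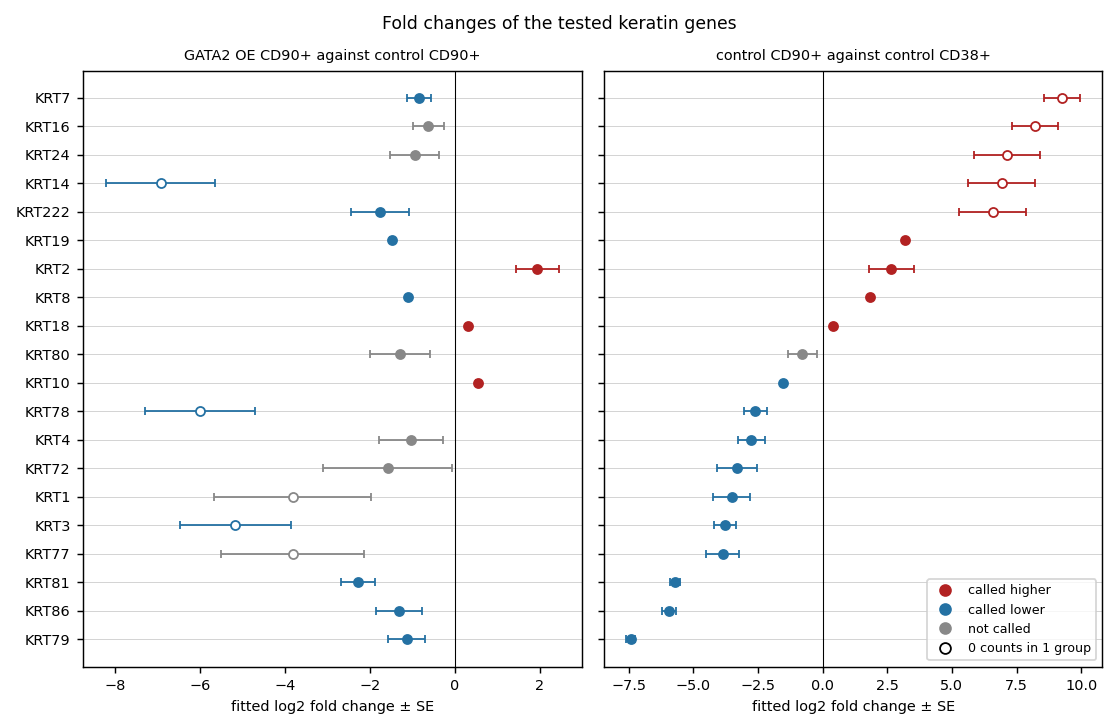
Fitted log2 fold change ± SE of the 20 tested keratin genes in overexpression against control CD90+ cells (left) and control CD90+ against control CD38+ cells (right). Colours give the call; open points had 0 counts in 1 group, so their position depends on the prior count. On the left 3 are called higher and 10 lower, on the right 9 higher and 10 lower.

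The third contrast, overexpression CD90+ against control CD38+ cells, shares its libraries with the other two, and it gave 8 members higher and 11 lower of 20, with 83.2% of all tested genes called (43.3% higher and 39.9% lower). At 2-fold or more the members were 6 higher and 10 lower, and 44.2% of all genes were called. Libraries of 19 tested members did not overlap, against 83.0% of all tested genes. KRT14, KRT24 and KRT222 passed the filter on low counts only through control CD90+ cells, which are outside this contrast. Within it, the lower members other than KRT10 passed only through control CD38+ cells. KRT2, KRT7 and KRT16 passed only through overexpression CD90+ cells. A fit of these groups alone called 16 of 16 tested, without KRT24, KRT72 and KRT222, so the counts are a description. KRT18 was 1.67-fold, KRT8 1.65-fold and KRT19 3.24-fold higher in overexpression CD90+ than in control CD38+ cells (edgeR adjusted p = 7.09e-15, 1.08e-13 and 9.13e-16). KRT10 was 1.97-fold lower (adjusted p = 1.03e-12), and KRT79, KRT81 and KRT86 differed by log2 fold changes of -8.56 ± 0.19, -7.99 ± 0.25 and -7.26 ± 0.33. Without overexpression replicate 3 the value for KRT81 was -8.87. KRT14 had 0 counts in both groups.

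The make-up of the keratin reads differed accordingly. KRT8, KRT18, KRT19 and KRT10 together gave 99.5% of them in overexpression CD90+, 99.2% in control CD90+ and 76.6% in control CD38+ libraries. KRT79, KRT81 and KRT86 gave 0.0700%, 0.182% and 22.4% in the same order of groups. KRT18 was the leading gene in overexpression CD90+ cells at 56.5 ± 0.32% of keratin reads, with KRT8 at 24.6 ± 0.19%. KRT8 led in control CD90+ cells at 40.9 ± 0.61%, with KRT18 at 35.0 ± 0.18%. In control CD38+ cells KRT18 gave 36.4 ± 0.55%, KRT10 21.5 ± 1.46%, KRT8 16.0 ± 0.43% and KRT79 13.0 ± 0.083%.

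**Figure D4:**
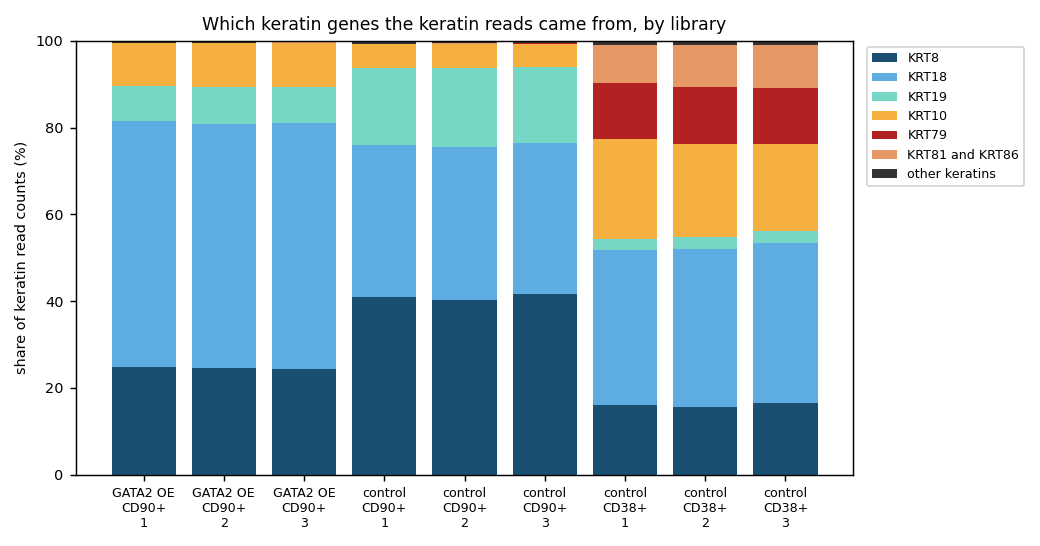
Share of the keratin read counts (%) from each gene, 1 bar per library. Overexpression CD90+ bars are mostly KRT18, control CD90+ bars have the largest KRT8 and KRT19 parts (40.9% and 17.9% on average), and control CD38+ bars alone show visible KRT79, KRT81 and KRT86 parts.

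Levels of different genes were compared per length, as RPKM (CPM per kilobase of merged exons). On that scale KRT18 was the highest member in every group, at 122 RPKM in overexpression CD90+, 98.0 in control CD90+ and 73.4 in control CD38+ cells. Summed type I levels were 181 ± 1.98, 191 ± 2.58 and 146 ± 2.004 RPKM in overexpression CD90+, control CD90+ and control CD38+ cells (SD, n = 3 each). Summed type II levels were 25.7 ± 0.109, 55.1 ± 1.03 and 80.9 ± 2.17 RPKM in the same groups. With lengths of the principal transcripts the type II sums were 81.8, 176 and 123 RPKM, so the order of control CD90+ and control CD38+ cells depends on the length chosen for KRT8. Type I exceeded type II in each group under both lengths.

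Genes that work with keratins were described from lists chosen with earlier results of these data known. Of 14 tested desmosome and linker genes, 3 were higher and 10 lower in overexpression than in control CD90+ cells (median log2 fold change -1.11; 1 higher and 12 lower with library size alone). In control CD90+ against control CD38+ cells 7 were higher and 4 lower (median 0.15). JUP, the junction protein plakoglobin, was at 200, 186 and 168 CPM on average in overexpression CD90+, control CD90+ and control CD38+ cells, and its log2 fold change between the CD90+ groups was 0.11 with TMM, -0.01 with upper-quartile factors and -0.14 with library size alone. In control CD90+ against control CD38+ cells JUP was higher under each scaling run (log2 fold change 0.14 to 0.55). PLEC, which encodes the linker plectin, was at 19.4, 98.1 and 166 CPM and called lower in both. DSC2, a desmosomal cadherin, was at 68.5, 34.7 and 79.2 CPM, higher with overexpression and lower in control CD90+ than in control CD38+ cells. DSP, which encodes desmoplakin, the linker of keratins to desmosomes, was at 7.58, 43.3 and 0.607 CPM, the order of groups seen for KRT8 and KRT19.

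Of 14 other intermediate filament genes tested, 4 were higher and 8 lower in overexpression than in control CD90+ cells (median log2 fold change -1.31). In control CD90+ against control CD38+ cells 5 were higher and 6 lower (median 0.01). With library size alone these counts were 0 higher and 10 lower, and 7 higher and 5 lower. VIM, which encodes vimentin, was at 614, 549 and 872 CPM on average in overexpression CD90+, control CD90+ and control CD38+ cells. LMNA, the A-type lamin gene, was at 227, 660 and 982 CPM, and LMNB1, a B-type lamin gene, at 50.8, 43.0 and 82.9 CPM. Of 4 tested cornified envelope genes, 3 were lower and 0 higher in both comparisons, with 1 higher between the control groups under library size alone. CSTA, which encodes the protease inhibitor cystatin A, was at 3.87, 8.36 and 92.2 CPM, and the transglutaminase genes TGM3 and TGM5 were next by mean level.

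Epithelial genes outside the keratin family gave 2 higher and 21 lower of 28 tested in overexpression against control CD90+ cells (median log2 fold change -1.18), and 18 higher and 7 lower in control CD90+ against control CD38+ cells (median 1.93). SPINT2, a protease inhibitor gene, was at 199, 158 and 272 CPM on average in overexpression CD90+, control CD90+ and control CD38+ cells. PRSS8, which encodes the protease prostasin, was at 3.51, 8.62 and 173 CPM, and SPINT1, a related inhibitor, at 15.4, 25.6 and 38.0 CPM. OVOL1, an epithelial transcription factor, was higher with overexpression, at 4.47, 0.733 and 0.874 CPM. CDH1, the E-cadherin gene, was at 2.60, 17.5 and 0.129 CPM. GRHL2 and TP63 had 0 counts in control CD38+ cells.

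Summed markers of several other cell types were ordered over the groups like KRT8 and KRT19, but not like KRT18, which was highest in overexpression CD90+ cells. Hepatic and yolk sac endoderm genes summed to 129 to 143 CPM in overexpression CD90+, 360 to 361 CPM in control CD90+ and 25.4 to 28.9 CPM in control CD38+ libraries, with 17 of 20 lower in overexpression than in control CD90+ cells and 16 of 20 higher in control CD90+ than in control CD38+ cells. TTR, APOA1 and APOA2, which encode plasma transport proteins, had the highest means of that list. Not every member had this order: 3 were lower in control CD90+ than in control CD38+ cells. Of these, FOXA1 averaged 6.03 CPM in control CD90+ and 14.2 CPM in control CD38+ cells, and SERPINA1 3.32 and 5.46 CPM. Mesenchymal genes, led by COL3A1, LUM and COL1A1, summed to 290 to 311, 1223 to 1241 and 49.5 to 53.1 CPM (13 of 14 lower, then 13 of 14 higher). Mesothelial genes, led by UPK3B, MSLN and WT1, summed to 15.7 to 18.1, 40.9 to 41.3 and 7.66 to 8.53 CPM (7 of 8 lower, then 7 of 8 higher). Trophoblast genes differed in order, at 149 to 167, 60.2 to 62.2 and 20.7 to 22.2 CPM (5 higher and 6 lower, then 10 higher and 1 lower, of 14). CGA, the shared gonadotropin alpha chain, was at 97.3, 2.66 and 7.37 CPM on average in the 3 groups. FGA, POSTN, TCF21 and 7 trophoblast genes had 0 counts in control CD38+ cells. The part of these cells in the keratin differences was not tested, and in bulk samples fewer cells of a type and less RNA per cell cannot be told apart.

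The sum of mast cell and basophil genes, like KRT79, KRT81 and KRT86, was highest in control CD38+ cells. It was 936 to 977 CPM in overexpression CD90+, 292 to 300 CPM in control CD90+ and 6221 to 6461 CPM in control CD38+ libraries, with 11 higher and 3 lower of 16 in overexpression against control CD90+ cells, and 2 higher and 12 lower in control CD90+ against control CD38+ cells. CLC, HDC and GATA2 had the highest means of that list, and CMA1 had 0 counts in overexpression CD90+ and control CD38+ cells. Without GATA2, itself the overexpressed gene, the sums were 552 to 614 CPM in overexpression CD90+, 206 to 210 CPM in control CD90+ and 5641 to 5911 CPM in control CD38+ libraries. Not every member had this order: against control CD38+ cells 4 of 16 were higher in overexpression CD90+ cells and 12 lower. KIT averaged 56.4 CPM in overexpression CD90+ and 42.0 CPM in control CD38+ cells, with control CD90+ cells between them. FCER1A was at 20.1, 2.48 and 1.03 CPM on average in overexpression CD90+, control CD90+ and control CD38+ cells. The CD90+ groups were ordered otherwise for KRT79, KRT81 and KRT86, whose means were lower in overexpression than in control CD90+ cells. Macrophage genes, led by CSF1R, VSIG4 and CD14, summed to 227 to 252, 1889 to 1922 and 1277 to 1345 CPM in overexpression CD90+, control CD90+ and control CD38+ libraries. Between the control groups they were split, with 7 higher and 5 lower of 12 in control CD90+ cells. CSF1R averaged 1068 CPM in control CD90+ and 416 CPM in control CD38+ cells, against 30.4 and 355 CPM for VSIG4 and 29.6 and 344 CPM for CD14. Blood cell genes, led by ITGA2B, HBE1 and CD34, summed to 2014 to 2097, 1472 to 1518 and 1254 to 1336 CPM in the 3 groups, with 5 higher and 4 lower of 10 between the control groups. The part of mast cells, macrophages and blood cells in the keratin differences was not tested.

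**Figure D5:**
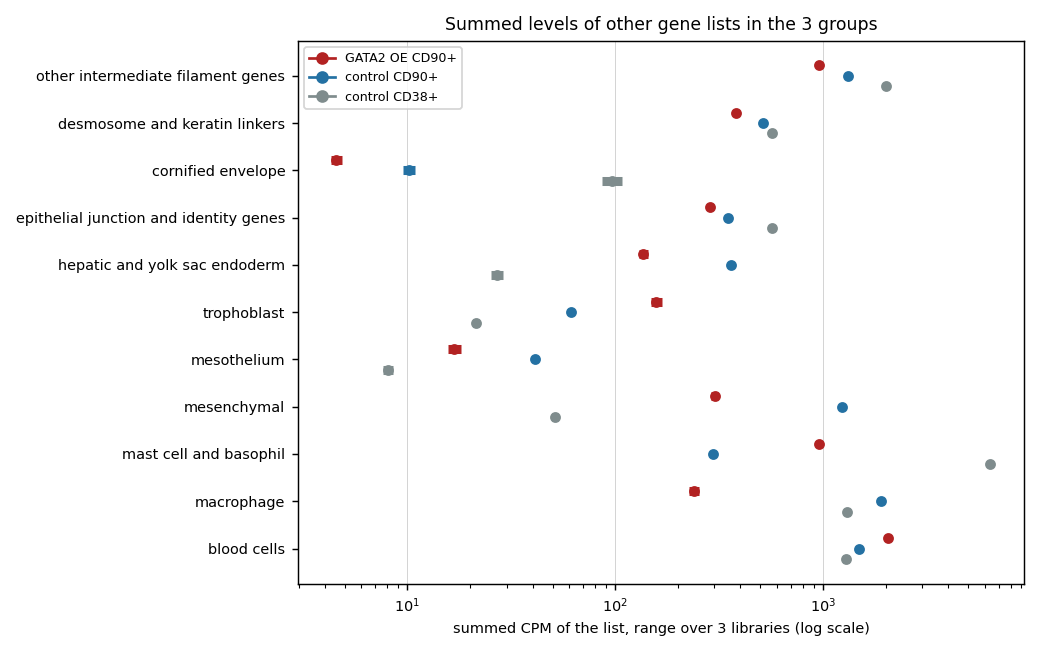
Summed CPM (log axis) of the gene lists set beside the keratins. Thick bars are the range over 3 libraries, and points are the geometric midpoints of the lowest and highest library. Endoderm, mesothelial and mesenchymal sums are highest in control CD90+ cells, and mast cell and cornified envelope sums in control CD38+ cells.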

How the data were processed

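RNA from sorted H1-derived cells was read in pairs of 150 nucleotides from stranded libraries, per the labels' protocols. The values are the authors' deposited counts, whole reads per gene symbol. The submitters' processing notes name HISAT2, featureCounts and hg38; versions, annotation, strand setting and treatment of multiply mapped reads are not stated there. All 9 columns were used.

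The test was edgeR 4.0.16 (quasi-likelihood, TMM, filterByExpr with minimum count 10 and minimum total 15, group means over all 9 libraries, R 4.3.3), adjusted by Benjamini-Hochberg over 16232 genes and tested on simulated data. Standard errors are the log2 fold change over the square root of F. The biological coefficient of variation was 6.72%, and replicate libraries differed by chi-squares of 3.96 to 7.84 per degree of freedom, so none was a duplicate. Bounds use a floor of 3 counts over a group, and intervals are exact (Clopper-Pearson, 95%). Lengths, positions and shared 50-base stretches are from GENCODE release 29 on GRCh38. Alternatives were other scalings and filters, DESeq2 1.42.0, limma 3.58.1 voom, a replicate block and leaving out each library.

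Keratins with a mean of at least 1 CPM in a group are given by library; from other lists up to 3 members with the highest mean and up to 2 of opposite direction are named. The other rare keratins, DSP, CDH1, genes at 0 counts and the chromosome 12 stretch were chosen after their values were seen. The members and lists were chosen with earlier results of these data known. Of 181 list symbols, 169 matched and 12 were not analysed here.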

Additional observations from a re-analysis of the deposited data

How the results depend on the processing

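No keratin tested in the main fit reversed its direction under any alternative run. Among the single-gene results of these members, 15 lost and 9 gained a call. With a filter of at least 1 CPM in 3 libraries, 6 keratins were lower in overexpression than in control CD90+ cells, 4 were higher and 4 lower in control CD90+ than in control CD38+ cells, and 4 were higher and 4 lower in overexpression CD90+ than in control CD38+ cells. A fit of the CD90+ groups alone gave 5 lower of 11 tested. KRT3, KRT78, KRT86 and KRT222 did not pass the filter on low counts in that fit. KRT79 was tested but not called, and the reason for that was not tested. Requiring a 2-fold difference left 4776, 5871 and 7181 genes in the 3 comparisons, and 1 keratin (KRT2) higher in overexpression than in control CD90+ cells. With library size alone the summed type I levels in overexpression CD90+, control CD90+ and control CD38+ cells were 177, 222 and 128 RPKM, and type II 25.2, 64.2 and 70.9 RPKM. With principal transcript lengths, an alternative chosen after seeing the data, type I sums were 328, 342 and 230 RPKM, and type II 81.8, 176 and 123 RPKM. KRT77 (adjusted p = 0.0521) was called lower with overexpression under library size alone (0.0406), RLE (0.0495) and upper-quartile factors (0.0468), with DESeq2 (0.0462) and limma voom (0.0390), and without control CD90+ replicate 1 (0.0421). In the same comparison KRT16 was called lower by edgeR with library size alone (0.0400), and KRT24 and KRT80 with limma voom (0.0472 and 0.0469).

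Deviations of same-numbered libraries from their group means correlated at -0.0238 to 0.0263 over 9 pairs, and those of libraries with different numbers at -0.0285 to 0.0283. The check gave no sign of pairing. It cannot exclude pairing, since counting noise over all tested genes can hide a shared deviation. With the replicate block 12 keratins were called between the CD90+ groups, and KRT222 was lost (adjusted p = 0.0612). No other keratin call changed under the block. Depth limits the rare members: 3 counts over a group correspond to 0.0265 CPM in overexpression CD90+, 0.0193 in control CD90+ and 0.0261 in control CD38+ cells, and differences below that were not detectable.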

Other observations

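Several members below the filter were uneven among libraries of a group, and the main fit did not test them. An alternative fit with no filter on low counts tested all 34 members. It called KRT13 and KRT23 lower in each CD90+ group than in control CD38+ cells. KRT73 was called lower in overexpression CD90+ than in control CD38+ cells, and KRT17 was not called. KRT23, a type I chain of simple epithelia, had 0, 1 and 0 counts in overexpression CD90+, 2, 1 and 0 in control CD90+ and 2, 5 and 48 in control CD38+ libraries, so replicate 3 held most of its reads. KRT13, the mucosal partner of KRT4, had 0 counts in all CD90+ libraries and 8, 1 and 16 counts in control CD38+ libraries. KRT17, a chain of hair follicle and injured skin, had 12, 2 and 3 counts in overexpression CD90+, 11, 6 and 4 in control CD90+ and 8, 8 and 9 in control CD38+ libraries, with all 3 groups overlapping.

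KRT5, KRT15 and KRT6B had most of their few counts in control CD90+ libraries. With no filter on low counts each was called higher in control CD90+ than in control CD38+ cells. KRT15 and KRT6B were also called lower in overexpression than in control CD90+ cells. KRT5, the basal partner of KRT14, had 1, 1 and 0 counts in overexpression CD90+, 5, 5 and 4 in control CD90+ and 0 in control CD38+ libraries. KRT15, a basal type I chain, had 0, 0 and 2 counts in overexpression CD90+, 6, 8 and 14 in control CD90+ and 2, 0 and 1 in control CD38+ libraries. KRT6B had reads only in control CD90+ libraries, at 9, 2 and 6 counts, and 47.1% of its 50-base stretches occur in other annotated genes.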
